A study of Nezara viridula with 24 samples.

Results

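The diet comparison in salivary glands of Nezara viridula, the southern green stink bug, covers 6 of the 24 RNA sequencing libraries of the series, 3 from adults given green bean and 3 from adults given corn. They were chosen by the labels' tissue and diet. After the adult moult the insects fed on their diet for 24 h, and each library pooled the glands of 4 to 10 individuals. No genotype, strain or sex is given in the labels, and nothing in them says that the 3 pools of a diet came from separate cultures, and every p-value here speaks of the spread among these pools alone. The deposited gland table lists 298322 transcripts of a Trinity assembly, built from sequencing reads without a genome. Their estimated counts were summed to 201329 Trinity genes, and the 12741 genes with enough counts were tested. The table pairs no identifier with a gene name, so genes appear under assembly identifiers, no gene is given a function, and the tissue could not be checked against named markers.

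Salivary glands of plant-feeding bugs make saliva that hardens into a sheath around the mouthparts and a watery saliva that carries digestive enzymes into the plant, where they loosen and liquefy tissue before it is taken up. A gland of this kind puts much of its messenger RNA into a limited set of secreted products. The comparison of diets addresses whether that set depends on the plant the insect feeds on.

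Library totals were 23293886 to 25126353 estimated counts on green bean and 19539652 to 21584909 on corn, so that depth was aligned with diet (exact two-sided permutation p = 0.1). Genes with at least 1 count numbered 34833 and 37040 in corn replicates 2 and 3 and 79903 in corn replicate 1, against 64901 to 73741 on green bean, a split that the labels do not name and that is partly aligned with diet. The difference of the diet means, 19201 genes, gave an exact two-sided permutation p of 0.4, where 3 against 3 cannot go below 0.1. As a check of the tissue, 238 genes were taken from the table of corn libraries for a mean of at least 100 CPM (counts scaled to a common library total) in corn glands and at least 20 times the mean of 9 corn midgut libraries. They held 56.4% to 66.5% of the counts in the 3 green bean gland libraries, which had no part in the choice. Their shares of 61.3% to 64.3% in corn glands and of at most 0.166% in any corn midgut library follow from the choice. Only the green bean shares therefore check the tissue. The converse set of 336 midgut-rich genes held 0.842%, 0.158% and 0.726% of counts in green bean replicates 1, 2 and 3 and 0.174%, 0.218% and 0.245% in corn replicates 1, 2 and 3. The means of this midgut-rich share were 0.575% ± 0.366 on green bean and 0.212% ± 0.0362 on corn (SD, n = 3 each). The corn gland libraries had served to choose both sets, a choice that favours a low midgut-rich share on corn. No p-value is therefore given for its diet difference, and the part of midgut RNA in the results below was not tested.

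Few gland genes passed the diet test, and none of the abundant ones did. Of 12741 genes, 15 (0.118%) had an adjusted p under 0.05, of which 2 (0.0157% of tested genes) were higher and 13 (0.102%) lower on green bean. All 15 had values that did not overlap between the diets, which was also the case for 15.5% of all tested genes. They ranked between 219 and 6443 by mean CPM and together held a mean of 0.308% of counts in corn glands and 0.0659% in green bean glands. By comparison, 1301 genes (10.2%) had an unadjusted p under 0.05, and log2 fold changes, green bean minus corn, had a median of -0.02 over the whole tested set. DESeq2 called 401 of the 12719 genes to which it gave an adjusted p (3.15%), 185 higher (1.45%) and 216 lower (1.70%). Without corn replicate 1 the edgeR count rose to 57, which included 14 of the 15. Corn was then left with replicates 2 and 3, so the split in genes detected was fully aligned with diet. In that fit 26.7% of all tested genes had an unadjusted p under 0.05. Diet and the split cannot be told apart there, so the rise is not separate evidence for the calls. Leaving out green bean replicate 2 lowered the count to 6, corn replicate 3 to 4, and green bean replicate 3 or corn replicate 2 to 1. All 15 kept their direction in each of these fits.

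TRINITY_DN2907_c0_g1 stood at 219, 166 and 188 CPM in green bean replicates 1 to 3 and at 23.8, 20.7 and 32.2 CPM in corn replicates 1 to 3 (CPM here and below are scaled by TMM, the trimmed mean of M-values). Every green bean library was above every corn library, and the gene rose 7.58-fold on green bean (log2 fold change 2.90, SE 0.24, adjusted p = 0.0222). The call was lost without green bean replicate 3 (adjusted p = 0.0573) or corn replicate 2 (adjusted p = 0.179). It is also present in the midgut, where its mean on green bean was 251 ± 82.9 CPM in section M1, 321 ± 53.9 in M2 and 393 ± 137 in M3, against 103 ± 86.9, 108 ± 6.06 and 184 ± 76.6 CPM on corn (SD, n = 3 each, levels of the midgut table). The midgut means were thus higher on green bean in all 3 sections, a difference that was not tested here.

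TRINITY_DN27594_c0_g1, in contrast, was close to absent from the midgut, at 0.0726 CPM over the corn midgut libraries. In glands it had 101.1, 141.4 and 113.4 CPM on green bean and 25.1, 25.8 and 34.3 CPM on corn, again without overlap. It rose 4.23-fold (log2 fold change 2.06, SE 0.21, adjusted p = 0.0356). Its call was lost without any 1 library other than corn replicate 1, with adjusted p between 0.0541 and 0.231.

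The largest fall was that of TRINITY_DN1813_c0_g1. Corn replicates 1 to 3 held 892, 735 and 1249 counts of it, or 35.7, 36.4 and 67.9 CPM, and each green bean library held a single count. The ratio of the summed counts on the CPM scale was 1071, with a 95% exact binomial interval from 366 to 5197 that covers counting error only (adjusted p = 0.00135). It kept its call in every fit that left out 1 library. In the midgut its means were also lower on green bean, at 5.08 ± 6.39 against 196 ± 228 CPM in M1, 2.67 ± 3.36 against 109 ± 125 in M2 and 58.2 ± 53.6 against 261 ± 78 in M3 (SD, n = 3 each). The SDs in corn M1 and M2 exceed the means, and these differences were not tested.

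TRINITY_DN2154_c0_g1 had 108, 149 and 69.1 CPM in the corn glands and 2.77, 1.26 and 1.28 CPM in the green bean glands. It fell 62.0-fold on green bean (log2 fold change -5.94, SE 0.48, adjusted p = 0.0222) and was hardly present in the corn midgut, with a ratio of 1567 between corn gland and corn midgut. A second Trinity gene of the same assembly component fell with it, from 991 ± 170 CPM on corn to 50.3 ± 22.1 on green bean (SD, n = 3 each, adjusted p = 0.0356). Genes of 1 component share sequence in the assembly, so these calls may not be independent. The call of TRINITY_DN2154_c0_g1 was lost without green bean replicate 2 or 3 or corn replicate 2, with adjusted p of 0.0597, 0.0573 and 0.0531.

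The remaining 11 genes, the second gene of that component among them, all fell, by 1.32 to 4.30 on the log2 scale, and their corn means ran from 7.59 to 991 CPM. Of all 15 called genes, 6 had at least 20 times more CPM in corn glands than in corn midgut, of which 5 fell and 1 rose. Of the 15, 8 reached 1 CPM in at least 1 diet in each of the 3 midgut sections. For 5 of these the midgut means differed in the direction seen in glands in all sections, and for 3 they did not. The share over all tested genes was not computed, so this count is not read as agreement between the tissues.

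**Figure D1:**
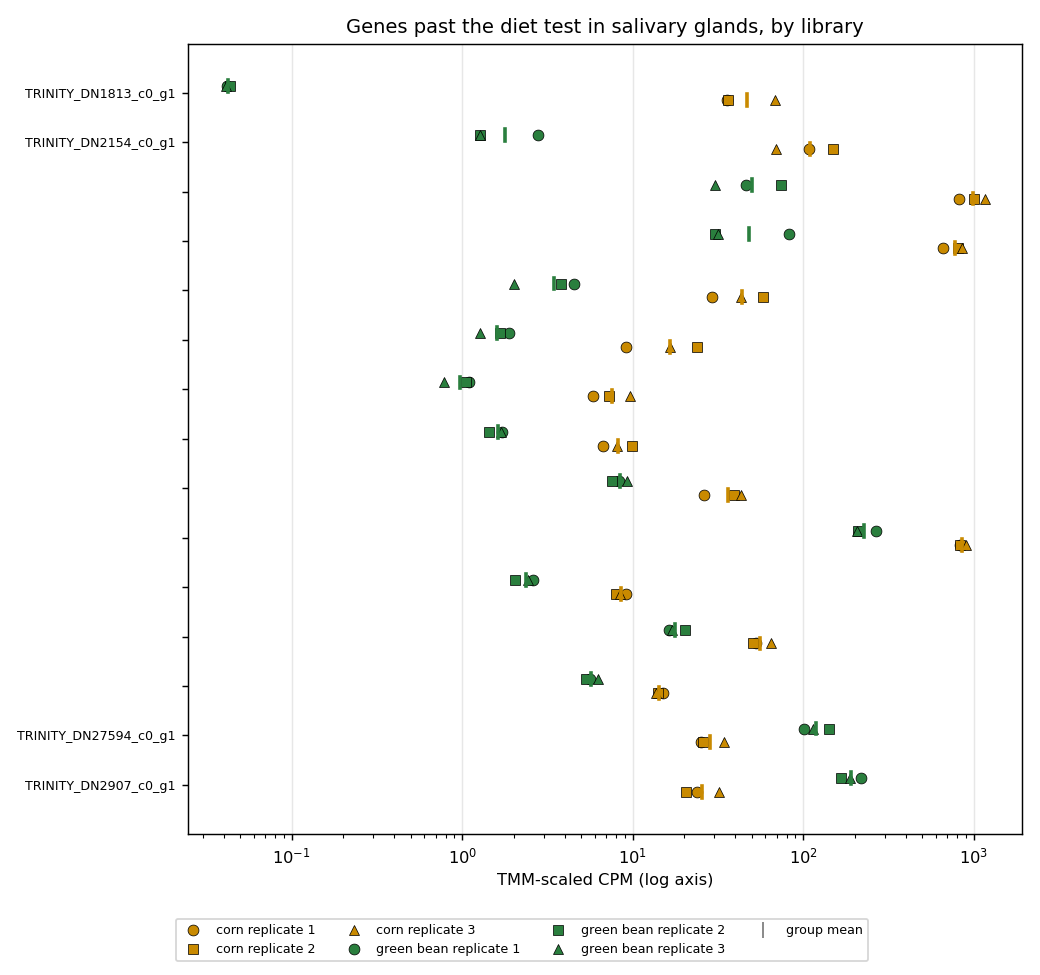
TMM-scaled CPM on a log axis for the 15 genes with an adjusted p under 0.05, in each of the 3 corn and 3 green bean gland libraries, with group means as bars and the named genes labelled. The diets do not overlap for any of the 15, and the distance is widest for TRINITY_DN1813_c0_g1, where each green bean library has 1 count.

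The abundant gland products were taken as the 100 genes with the highest mean CPM over all 6 libraries, which uses no diet contrast. The gene at rank 100 averaged 1339 CPM and the next one 1335. Counts grow with transcript length, and no lengths were used, so this is an order of counts and not of molecules. The 100 genes held 69.5%, 68.5% and 68.7% of counts in green bean replicates 1 to 3 and 63.2%, 66.3% and 65.9% in corn replicates 1 to 3. All green bean libraries were above all corn libraries, with means of 68.9% ± 0.562 and 65.1% ± 1.69 (SD, n = 3 each, exact two-sided permutation p = 0.1, the smallest the design allows). The number of genes that held 50% of the counts was 31, 31 and 23 on green bean and 42, 38 and 38 on corn (exact two-sided permutation p = 0.1). Counts were thus held by fewer genes in each green bean library than in any corn library.

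These genes fell into 2 distinct classes by tissue. In the table of corn libraries, 88 had at least 20 times more CPM in glands than in midgut, with a median ratio of 1537 and a lowest of 28.5. The other 12 had a ratio of at most 4.64 and are called shared here. The 88 gland-rich genes held 61.0%, 55.6% and 52.1% of counts in green bean replicates 1 to 3 and 54.1%, 56.5% and 53.4% in corn replicates 1 to 3, with overlapping ranges and an exact two-sided permutation p of 0.7. The 12 shared genes held 8.48%, 12.9% and 16.5% on green bean and 9.14%, 9.85% and 12.5% on corn (exact two-sided permutation p = 0.6). In whole-gland RNA, fewer cells of a type and less RNA per cell cannot be told apart, and every level is relative to the other transcripts of its library.

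None of the 100 passed the diet test (lowest adjusted p = 0.123, edgeR quasi-likelihood), and none did when any 1 library was left out. A p that misses the threshold does not show that a gene was constant. At an unadjusted p under 0.05, 28 of the 100 passed, 20 higher and 8 lower on green bean, against 10.2% of all tested genes. DESeq2 called 21 of the 100, 14 higher and 7 lower, against 3.15% of all genes with an adjusted p. Values of 32 did not overlap between diets, 23 of them higher and 9 lower on green bean, against 6.94% higher and 8.52% lower among all tested genes. All 28 and all 32 were gland-rich. Among the 181 gland-rich genes of the next 900 by rank, 69 had an unadjusted p under 0.05, 26 higher and 43 lower on green bean. Values of 69 of the 181 did not overlap between diets, 28 of them higher and 41 lower on green bean. The excess over all tested genes was thus not particular to the 100, and the lean toward higher values on green bean was absent in the next range.

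The 95% interval of a gene's diet difference reflects both the size of that difference and the spread within each diet. It was counted as narrow when it lay inside a 2-fold change in either direction. Only 12 of the 100 abundant genes met this, against 5533 of 12741 tested genes (43.4%). The 12 comprised 5 of 88 gland-rich and 7 of 12 shared genes. The same difference appeared among the next 900 genes by rank, where 22 of 181 gland-rich genes and 577 of 719 others had narrow intervals. The median absolute log2 fold change was 0.78 for the abundant gland-rich genes and 0.10 for the shared ones, 0.81 and 0.17 for the gland-rich and other genes of the next 900, and 0.29 over all tested genes. The median half-width of the interval was 1.04 log2 units for the abundant gland-rich genes and 0.78 for the shared ones. It was 1.02 and 0.54 for the gland-rich and other genes of the next 900, and 0.80 over all tested genes. An interval with a half-width over 1 log2 unit cannot be narrow at any diet difference. The counts of narrow intervals thus also follow the spread within diets. All of these values are descriptions of lists and were not tested against each other. The gland-rich class was defined in part with the 3 corn gland libraries. Without corn replicate 1, the narrow intervals numbered 5 of the 88 and 6 of the 12, and among the next 900 genes they numbered 21 of 181 and 545 of 719. Classes and ranks were kept from all libraries in that fit, so it does not test how the classes depend on corn replicate 1. Leaving out a library reduced the count of 12 to as few as 4 (corn replicate 2), 5 (green bean replicate 2) and 7 (green bean replicate 3 or corn replicate 3).

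**Figure D2:**
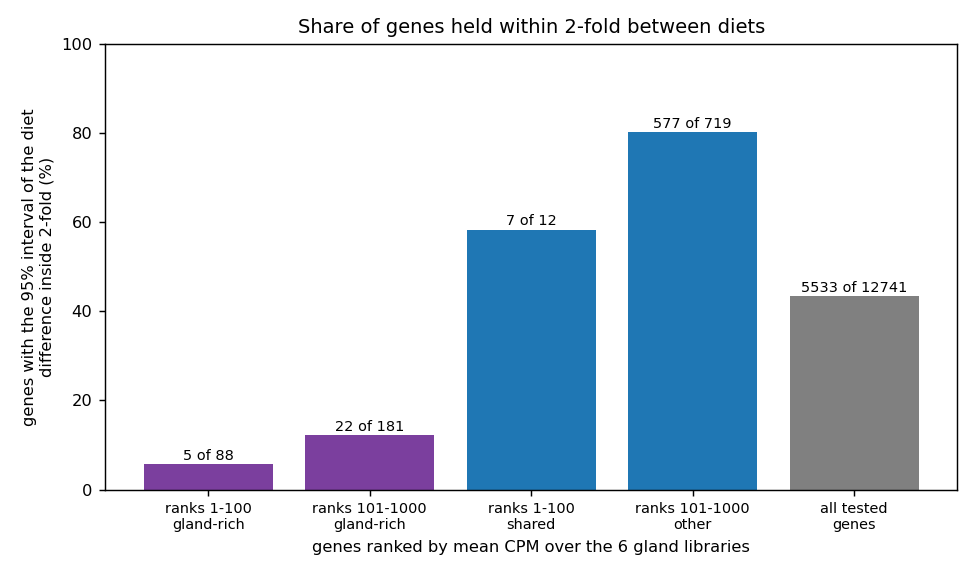
Percent of genes whose 95% interval of the diet difference lies inside 2-fold, for gland-rich genes and for the others among the 100 most abundant and the next 900 genes by mean CPM, and for all tested genes. Bars of gland-rich genes (5 of 88 and 22 of 181) are lower than those of the other genes (7 of 12 and 577 of 719) in both ranges.

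**Figure D3:**
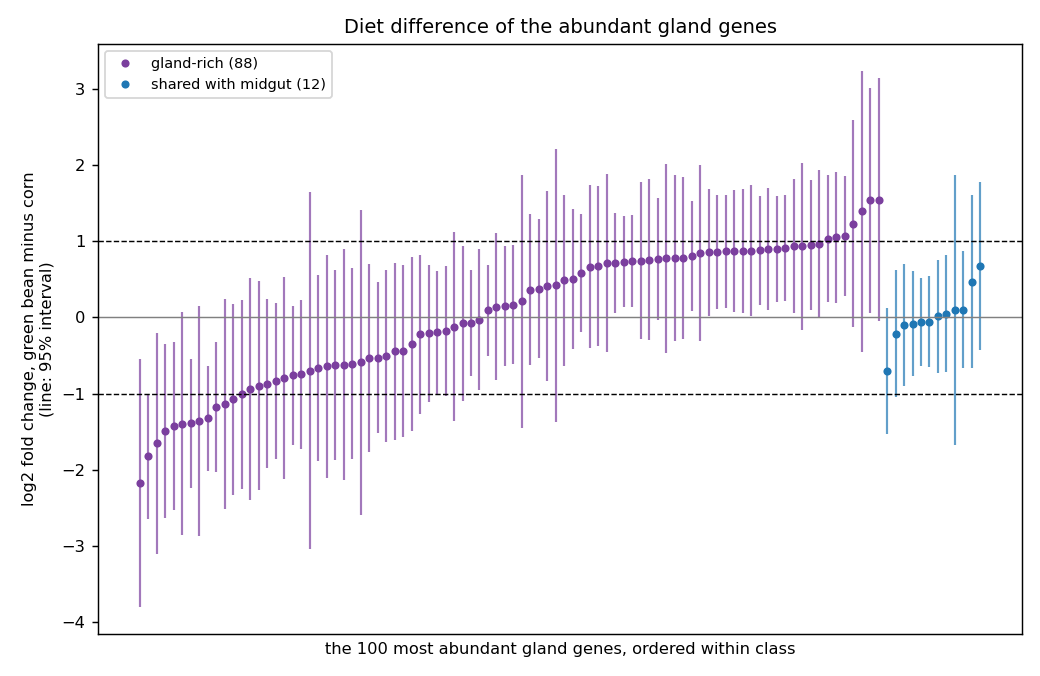
Log2 fold change, green bean minus corn, with its 95% interval for each of the 100 most abundant gland genes, ordered by value within the 88 gland-rich and the 12 shared genes, with dashed lines at a 2-fold change. Estimates of gland-rich genes spread to both sides of 0, up to 2.18 in size, while those of shared genes stay within 0.70.

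The green bean libraries were divided among themselves over the abundant genes. Over the 100 genes, the 3 corn libraries correlated with one another at a Pearson r of 0.875 to 0.955 on log2 CPM, and green bean replicate 1 correlated with them at 0.789 to 0.854. The same library correlated with green bean replicates 2 and 3 at 0.694 and 0.669. Those 2 libraries correlated with each other at 0.881 and with the corn libraries at 0.583 to 0.653. These values describe 100 genes in common between libraries, not independent replicates, and carry no test. Over the abundant genes, green bean replicate 1 thus stood closer to each corn library than to its own group. Over all tested genes, r lay between 0.932 and 0.986 for every pair, without that order. Green bean replicate 1 did not stand apart in total or in genes detected, and its share of midgut-rich genes, 0.842%, was the highest of the 6 but close to that of green bean replicate 3. No label names a cause for the division, and its part in the diet difference was not tested. Without green bean replicate 1, narrow intervals numbered 13 of the 100, 6 of them gland-rich, close to the 12 and 5 with all libraries.

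**Figure D4:**
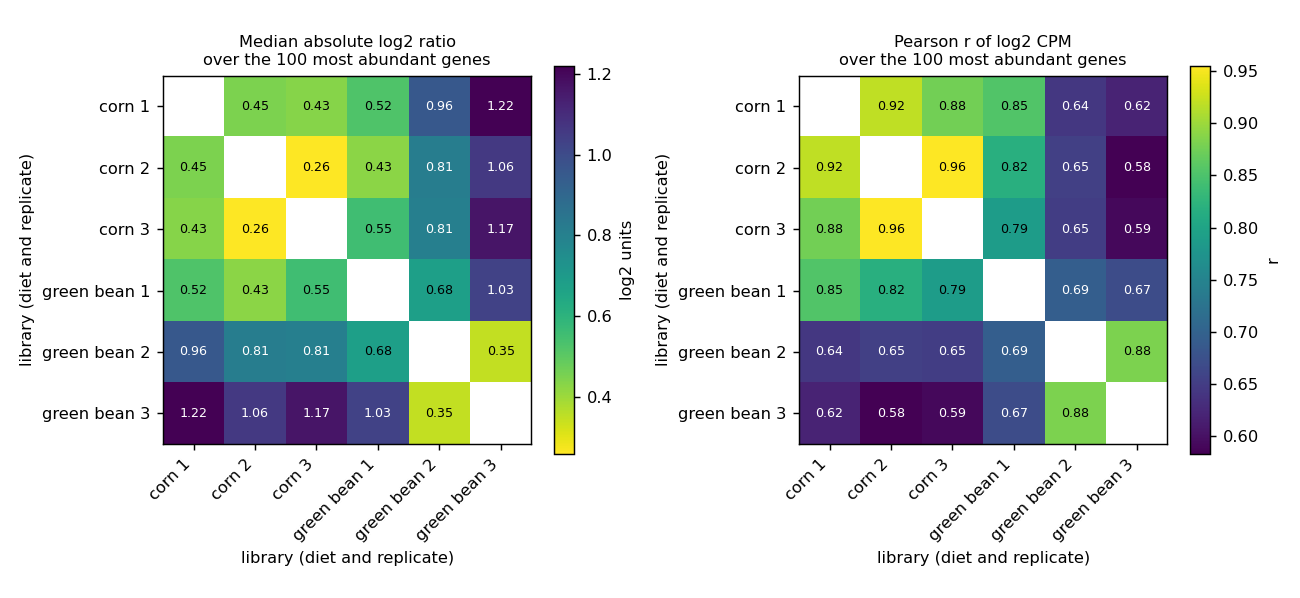
Median absolute log2 ratio (left) and Pearson r of log2 CPM (right) between each pair of the 6 gland libraries, over the 100 most abundant genes. Green bean 1 has a median ratio of 0.426 to 0.553 log2 units to the corn libraries, and of 0.677 and 1.03 to green bean 2 and 3.

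Across replicates of 1 diet, the median range over the 88 gland-rich genes was 1.35 log2 units on green bean and 0.58 on corn, and 66 of the 88 had the wider range on green bean. Over all 12741 tested genes the order was the opposite, with median ranges of 0.55 on green bean and 0.75 on corn and 4658 wider on green bean. Over the 181 gland-rich genes of the next 900 by rank, the median ranges were 1.42 on green bean and 0.77 on corn. Of these, 134 were wider on green bean, so this trait was not particular to the 100 most abundant genes. All 1456 tested genes that met the ratio of 20, with no floor on CPM, had median ranges of 1.33 and 1.34. Of the 1456, 717 were wider on green bean. Outside the 100, a small constant was added to CPM before ranges were taken. For 29 of the 88, green bean replicates 2 and 3 were the lowest of all 6 libraries. This was so for 49 of the 181, for 170 of the 1456 and for 1148 of all 12741 tested genes. Without green bean replicate 1, 57 of the 88 passed at an unadjusted p under 0.05, compared with 28 when all libraries were used, while the share of all tested genes was 10.1% against 10.2%, and none passed after adjustment (lowest adjusted p = 0.0504). Among all 100 in that fit, 31 were higher and 28 lower at an unadjusted p under 0.05, the median absolute log2 fold change was 1.01 in place of 0.74, and 49 in place of 80 stayed within 1 log2 unit. Leaving out any other 1 library gave 8 to 18 of the 88, with 5.79% to 26.7% of all tested genes. Over the abundant genes, green bean replicate 1 stood closer to corn, so the rise without it is not separate evidence of a diet difference.

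The 10 genes with the highest mean CPM show the patterns in single libraries. TRINITY_DN223_c10_g2, the first of them and a shared gene, had 53967, 83597 and 116167 CPM on green bean and 39681, 60048 and 83281 CPM on corn. The ranges overlap, and the log2 fold change was 0.47 (95% interval -0.67 to 1.61). In the corn midgut it was higher still than in corn glands, with a gland to midgut ratio of 0.54.

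TRINITY_DN629_c0_g1, gland-rich with a ratio of 887, had 64047, 28946 and 17485 CPM on green bean and 45568, 72891 and 73302 CPM on corn. Green bean replicate 1 lay among the corn libraries and the other two lay below all of them. The log2 fold change was -0.80 with a 95% interval from -2.12 to 0.53.

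TRINITY_DN30_c0_g1 had 44224, 23779 and 14677 CPM on green bean and 33155, 43177 and 41227 CPM on corn, so that green bean replicate 1 was the highest of the 6 libraries, and its log2 fold change was -0.51 (-1.64 to 0.63). TRINITY_DN1485_c1_g1 had 17955, 7973 and 5233 CPM on green bean and 13269, 20118 and 11715 CPM on corn, with a log2 fold change of -0.53 (-1.77 to 0.70). In both genes, green bean replicates 2 and 3 were the lowest of the 6 libraries.

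TRINITY_DN339_c0_g2 was the extreme of this pattern. It reached 41434 CPM in green bean replicate 1 and 8018 and 5327 CPM in replicates 2 and 3, around a narrow corn range of 15459, 12803 and 12658 CPM. Its log2 fold change of 0.42 (-1.37 to 2.21) was decided by 1 library, and without green bean replicate 1 it was -1.03.

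The other 5 genes were higher in every green bean library than in any corn library, without passing the adjusted test. TRINITY_DN205_c0_g1 had 47414, 66420 and 69928 CPM on green bean and 33645, 36395 and 30015 CPM on corn, a log2 fold change of 0.88 (0.01 to 1.74, adjusted p = 0.479). TRINITY_DN15236_c0_g1 had 26487, 36142 and 37985 CPM on green bean and 17730, 19750 and 16500 CPM on corn (log2 fold change 0.90, 0.10 to 1.70, adjusted p = 0.448). In these genes green bean replicate 1 was the lowest of its group but still above the corn range.

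TRINITY_DN9930_c0_g1 had 20658, 23805 and 30361 CPM on green bean and 7897, 12701 and 17770 CPM on corn, with a log2 fold change of 0.96 (-0.01 to 1.94). For TRINITY_DN2514_c0_g1 the values were 14871, 21524 and 27638 CPM on green bean and 10768, 11439 and 8664 CPM on corn, with a log2 fold change of 1.05 (0.19 to 1.91). For TRINITY_DN89_c0_g2 they were 11215, 16957 and 19795 CPM on green bean and 8521, 9832 and 7824 CPM on corn, with a log2 fold change of 0.87 (0.06 to 1.69). All 5 genes had corn gland to corn midgut ratios between 1446 and 1806. DESeq2 called 4 of the 5, the exception being TRINITY_DN9930_c0_g1.

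**Figure D5:**
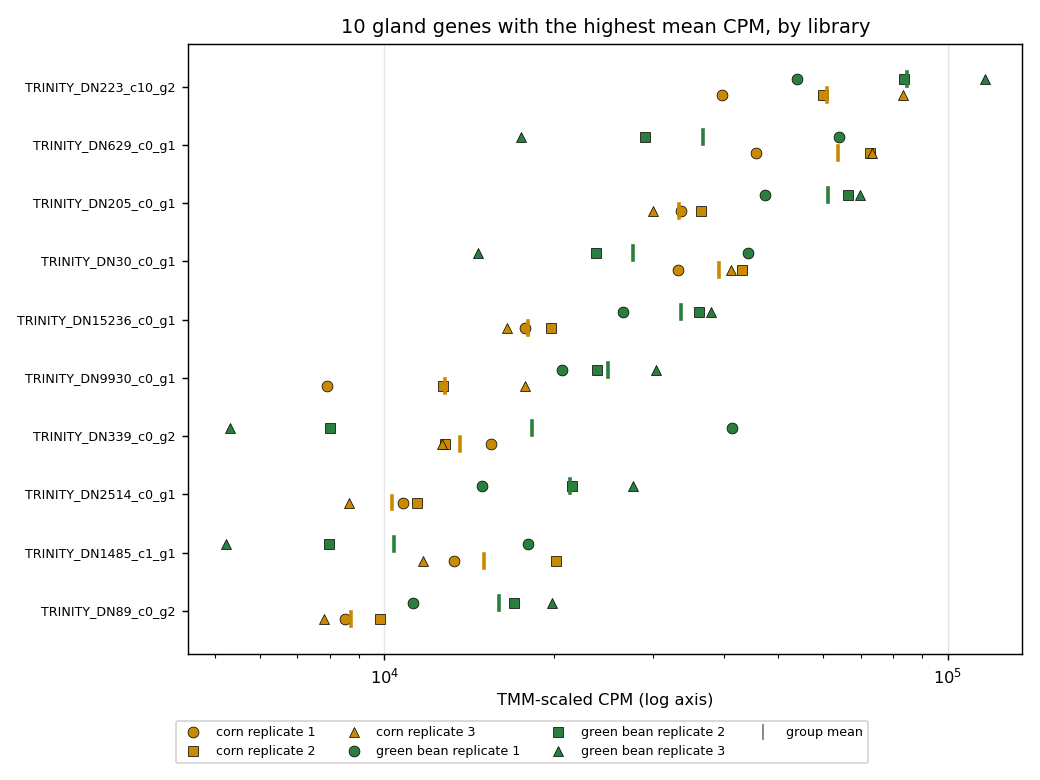
TMM-scaled CPM on a log axis of the 10 genes with the highest mean CPM, in each gland library, with group means as bars. For 5 genes all green bean points lie above all corn points, and for TRINITY_DN629_c0_g1, TRINITY_DN30_c0_g1, TRINITY_DN339_c0_g2 and TRINITY_DN1485_c1_g1 green bean replicate 1 lies apart from replicates 2 and 3.

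At the steady end of the 100 stood TRINITY_DN2490_c0_g2, a shared gene, with 3146, 3225 and 3734 CPM on green bean and 3122, 3723 and 3663 CPM on corn. Its highest library was 1.196 times its lowest, and the 95% interval of its log2 fold change, -0.66 to 0.54, excluded a 2-fold change. TRINITY_DN1421_c0_g1, also shared, ran from 1158 to 1554 CPM over the 6 libraries, a ratio of 1.34, with an interval of -0.64 to 0.52. The widest ratios belonged to gland-rich genes. TRINITY_DN4429_c0_g1 ranged 19.4-fold, with 568, 3171 and 164 CPM on green bean and 987, 2945 and 2398 CPM on corn, so that its extremes lay within the green bean group. TRINITY_DN1119_c18_g1 ranged 13.1-fold, with 1388, 290 and 262 CPM on green bean below 3174, 3430 and 2177 CPM on corn (log2 fold change -2.18, SE 0.69, adjusted p = 0.375).

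The make-up of the top of the list also shifted between libraries. Of the 20 most abundant genes of each library, 9 were common to all 6 and 34 appeared in at least 1. Any 2 corn libraries had 17 or 18 of their top 20 in common, green bean replicates 2 and 3 had 18, and green bean replicate 1 had 16 in common with each corn library and 13 and 12 with the other green bean libraries.

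A gene total can stay level while its isoforms change, so isoform usage was tested for 5153 Trinity genes with at least 2 tested transcripts. It differed between diets in 74 (1.44%), of which 1 was also among the 15 genes called on totals. Without corn replicate 2 the count of 74 was 25, without green bean replicate 3 it was 39 and without corn replicate 3 it was 40. Of the 100 abundant genes, 78 could be tested and 6 were called, and 13 had an unadjusted p under 0.05 (4.46% of all genes tested for usage). Across the 100, the leading isoform held a median of 93.6% of the gene's counts on corn and 93.1% on green bean, the same isoform led in all 6 libraries for 81 genes, of which 20 have 1 isoform only, and its mean share moved by less than 10 percentage points for 85. Isoforms of 1 gene share reads, and how the quantifier divided them is uncertain. With transcripts not summed, edgeR called 0 of 23969 transcripts.

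The 2 abundant genes with the lowest adjusted p for usage, both 3.37e-09, were TRINITY_DN1004_c0_g1 and TRINITY_DN2984_c0_g1. In the first, isoform i7 held 9.29%, 10.2% and 7.12% of the gene's counts in corn replicates 1 to 3 and 0.263%, 0.694% and 1.05% on green bean, and isoform i1 had 2425, 2165 and 2832 counts on corn and none on green bean. The gene total had a log2 fold change of -0.64 (95% interval -2.10 to 0.82). In the second, isoform i13 was at 0 in all corn libraries and held 3.03%, 1.16% and 7.30% on green bean. It passed no longer when isoforms under 5% of their gene were left out (adjusted p = 0.163). These were minor isoforms, and in both genes the leading isoforms were present on both diets.

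A larger shift was found in TRINITY_DN1479_c0_g1, a gene outside the naming rule and picked with its values known. Its isoform i10 held 33.1%, 29.3% and 27.8% of the gene's counts in corn replicates 1 to 3 and 0.321%, 1.49% and 5.28% in green bean replicates 1 to 3 (usage adjusted p = 3.23e-04). The gene total was 11725, 16041 and 18839 CPM on corn and 5426, 3818 and 3915 CPM on green bean. That difference, -1.82 on the log2 scale (SE 0.35), had the lowest adjusted p of the 100 abundant genes, 0.123, and did not pass.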

How the data were processed

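Polyadenylated RNA of 24 libraries was sequenced by the authors. Trim Galore 0.4.4, Salmon 0.12 and DESeq2 1.20.0 are named in the submitters' processing notes, with no role or order. Values deposited by the authors are estimated counts per Trinity transcript, all whole numbers, with 1 column per library. The same corn gland library differed between the gland and corn tables by a factor per gene (SD 0.057 on the log2 scale over 1275 highly counted genes), so tests stayed within the gland table. The step that introduced this factor is not stated in the labels.

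Counts were summed per Trinity gene (identifier without its isoform ending). With R 4.3.3 and edgeR 4.0.16, genes were kept by filterByExpr (99.1% to 99.8% of counts), scaled by TMM and tested with glmQLFit (robust) and glmQLFTest, two-sided, with Benjamini-Hochberg adjustment over all tested genes and a threshold of 0.05. SE is the log2 fold change divided by the square root of F, and 95% intervals use the fit's degrees of freedom. Isoform usage was tested with diffSpliceDGE (Simes). DESeq2 1.42.0 served as an alternative. Single values were compared by exact permutation. The code was tested on simulated data. Scaled CPM and library totals were computed from the deposited estimated counts.

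Named genes were the 10 with the highest mean CPM; the 2 largest rises and falls with an adjusted p under 0.05, a log2 change of at least 1, no overlap and at least 10 CPM; the 2 steadiest and the 2 most variable of the 100 most abundant; and the 2 abundant genes with the lowest adjusted p for isoform usage. Members, lists and tests were chosen with earlier results of these data known, and the split into gland-rich and shared genes was made after seeing the data. Pairs of gland libraries of 1 diet differed by 54.2 to 498 times the sampling noise, as chi-square over its degrees of freedom, so none was counted as a duplicate.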

Additional observations from a re-analysis of the deposited data

How the results depend on the processing

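Counts of called genes depended on the processing more than directions did. The 15 called genes became 11 with DESeq2 size factors, 20 with library totals alone, 16 without the robust prior and 21 with assembly components in place of genes. They became 533 without the filter on low counts, 401 with DESeq2's Wald test, 0 with transcripts not summed and 1 without corn replicates 2 and 3. Leaving out 1 library gave 1 to 57, or 1 to 78 with genes filtered anew (added after seeing the data). Among the 100 abundant genes the count of 0 became 27 without the filter and 21 with DESeq2. The 12 narrow intervals became 20 without the filter, 0 without corn replicates 2 and 3, 0 with a 1.5-fold bound, and 4 to 13 with 1 library left out. The 74 isoform calls became 42 with isoforms of at least 5% of their gene, 15 without corn replicates 2 and 3 (added after seeing the data) and 25 to 70 with 1 library left out. With 5 times in place of 20 times to choose the sets, the midgut-rich share on green bean moved from 0.575% to 1.06%. Fits with a library left out also hold fewer libraries, and the cause of these changes was not tested.

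With the replicate number as a block, 1 gene and 14 isoform-usage genes were called, and the log2 fold change of TRINITY_DN339_c0_g2 was -0.20 in place of 0.42. The numbers were not shown to pair the samples: deviations of same-numbered libraries correlated at -0.0268, -0.0539 and 0.166, and not every library correlated best with its own number.

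Other reversals were in genes near 0 or with wide spread. With 1 library left out, the log2 fold change ran from -1.03 to 0.86 for TRINITY_DN339_c0_g2 and from -0.19 to 0.032 for TRINITY_DN1421_c0_g1. Without corn replicates 2 and 3 it was 0.19 for TRINITY_DN1421_c0_g1, 0.13 for TRINITY_DN2490_c0_g2 and 0.42 for TRINITY_DN4429_c0_g1. Of 319 alternatives over single genes and their isoform usage, 267 stayed the same, 34 lost the call, 12 gained it and 6 reversed. A gene that was not called and stayed so counts among the 267. Isoform usage has no direction, so only its call was compared. The 267 therefore do not measure how well the called genes held. Depth limits the low end: TRINITY_DN1813_c0_g1 had 1 count in each green bean library, so the size of its fall is known only within its counting interval.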

Other observations

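Isoform calls among abundant genes did not all rest on 3 libraries of a diet. TRINITY_DN900_c0_g1, rank 25 by mean CPM, was called for isoform usage (adjusted p = 0.00646) through isoform i14, which had 15688 counts in corn replicate 2, 2 and 1 in corn replicates 1 and 3, and 75, 0 and 22 in green bean replicates 1 to 3. Its adjusted p was 0.838 without corn replicate 2, and 0.147 and 0.199 without green bean replicates 2 and 3. In TRINITY_DN1624_c0_g1, isoform i1 had 90, 1044 and 934 counts in corn replicates 1 to 3 and none on green bean (adjusted p = 0.0126, but 0.0675 without corn replicate 3, 0.137 without corn replicate 2 and 0.0726 without green bean replicate 3). In TRINITY_DN1421_c0_g1, among the steadiest genes by total, isoform i10 had 37, 44 and 45 counts on green bean and none on corn, about 0.134% of the gene's counts (adjusted p = 0.00944, but 0.101 without corn replicate 2 and 0.0625 without corn replicate 3). These genes were singled out after their values were seen.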
